A study of Drosophila melanogaster with 3 samples.

Results

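The Rab genes of Drosophila melanogaster were taken as every protein-coding gene of genome Release 6 whose symbol is Rab or RabX followed by a number, with an optional letter suffix. Of 13968 protein-coding genes on the main chromosome arms, 33 met this rule. All libraries came from 1 group of whole embryos, males and females together, collected at 0 to 14 h from strain Lhr-GFP. This transgenic line stably carries Lhr fused to GFP at its C-terminal end. The fusion protein was precipitated with an antibody against GFP, from chromatin sonicated to 200 to 800 bp, in biological replicates 1, 2 and 3. There was no second genotype, age or treatment, and the control library named in the labels was not analysed here. A whole embryo mixes all its cell types, so a peak cannot be placed in any of them, and nothing here measures RNA.

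Rab proteins are small GTPases that mark the membranes of the secretory and endocytic pathways. In the GTP-bound form a Rab recruits effectors such as tethers and motors. Guanine nucleotide exchange factors (GEFs) switch it on, GTPase-activating proteins (GAPs) switch it off, and lipid groups attached by a prenyltransferase anchor it in the membrane. Some Rabs serve steps that every cell needs, while others belong to neurons, pigment cells or other lineages. Lhr (Lethal hybrid rescue) is a chromatin protein known for its part with Hmr in the lethality of hybrids between Drosophila species, and it binds HP1a.

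A gene was called bound when the summit of a peak lay within 500 bp of any of its annotated start sites, and the strongest such summit was used. Of the bound genes, 5 are shown first, because a single 8-base word, the DNA replication-related element (DRE, TATCGATA), lay within 100 bp of each of their summits. The DRE is the site of the factor DREF and is common in promoters of broadly expressed fly genes. The stretches below come from the RefSeq Release 6 genome (dm6), run 5′ to 3′ in the direction of the Rab gene, cover 100 bp to each side of the summit, and are trimmed where an annotated exon begins. Capitals mark the DRE, and at Rab8 also the E-box CAGCTG. The stretches are Rab8 at chr3L:19871079-19871138 (minus strand), Rab30 at chr2L:7032607-7032720 (minus strand), Rab7 at chr3R:23992917-23993007 (plus strand), RabX6 at chr3L:690361-690516 (plus strand) and Rab35 at chrX:20159957-20160157 (minus strand).
Rab8: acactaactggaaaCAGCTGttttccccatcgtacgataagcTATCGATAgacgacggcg
Rab30: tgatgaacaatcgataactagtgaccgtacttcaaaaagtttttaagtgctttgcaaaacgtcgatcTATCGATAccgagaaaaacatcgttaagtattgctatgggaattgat
Rab7: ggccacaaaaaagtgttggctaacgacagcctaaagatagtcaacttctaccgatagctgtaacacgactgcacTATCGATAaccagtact
RabX6: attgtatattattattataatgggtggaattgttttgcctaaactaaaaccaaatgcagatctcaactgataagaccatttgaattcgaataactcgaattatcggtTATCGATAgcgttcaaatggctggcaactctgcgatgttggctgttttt
Rab35: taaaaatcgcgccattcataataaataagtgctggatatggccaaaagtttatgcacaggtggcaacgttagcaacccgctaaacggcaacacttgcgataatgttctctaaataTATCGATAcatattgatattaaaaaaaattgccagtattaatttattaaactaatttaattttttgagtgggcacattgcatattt
The DRE was centred 8 bp from the summit at Rab8, 12 bp at Rab30, 33 bp at Rab7, 10 bp at RabX6 and 19 bp at Rab35.

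Another 3 stretches show other promoter words near a summit. Capitals mark the M1BP element (GGTCACACT, here on the other strand) at Rab14 and the Ohler 7 element (CATCNCTA, at Rab11 on the other strand) at Rab11 and Rab39. They are Rab14 at chr2L:14355086-14355144 (plus strand), Rab11 at chr3R:21111106-21111306 (plus strand) and Rab39 at chrX:7734652-7734844 (plus strand).
Rab14: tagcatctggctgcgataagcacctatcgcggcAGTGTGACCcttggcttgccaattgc
Rab11: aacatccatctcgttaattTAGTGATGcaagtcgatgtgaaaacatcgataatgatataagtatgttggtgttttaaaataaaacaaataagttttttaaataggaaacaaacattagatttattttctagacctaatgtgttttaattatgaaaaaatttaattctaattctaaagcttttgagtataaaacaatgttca
Rab39: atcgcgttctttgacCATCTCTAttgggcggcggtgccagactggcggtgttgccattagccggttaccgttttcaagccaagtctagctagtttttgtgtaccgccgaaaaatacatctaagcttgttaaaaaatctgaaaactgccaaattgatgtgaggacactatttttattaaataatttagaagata
The marked word was centred 6 bp from the summit at Rab14, 78 bp at Rab11 and 74 bp at Rab39. At Rab11 and Rab39 it lay 280 and 253 bp upstream of the Rab start. The DRE of Rab14 lay 50 bp from its summit, outside the trimmed stretch. A contrast is given by sequence directly upstream of the first start site of 3 genes that were not bound, where capitals mark the DRE of Rab27 and Rab6 and the GAGA element (GAGAGAG) of Rab26. They are Rab27 at chrX:1476975-1477062 (minus strand), Rab6 at chr2L:12109117-12109266 (minus strand) and Rab26 at chr3L:21318651-21318773 (plus strand).
Rab27: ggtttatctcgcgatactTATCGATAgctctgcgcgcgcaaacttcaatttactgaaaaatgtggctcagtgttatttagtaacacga
Rab6: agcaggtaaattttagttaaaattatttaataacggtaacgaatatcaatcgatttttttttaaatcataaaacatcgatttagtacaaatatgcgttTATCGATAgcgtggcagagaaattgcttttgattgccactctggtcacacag
Rab26: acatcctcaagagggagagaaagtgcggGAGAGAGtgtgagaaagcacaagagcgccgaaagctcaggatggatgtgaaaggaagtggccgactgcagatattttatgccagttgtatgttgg
A DRE was therefore present both at bound and at unbound Rab genes, and the counts are given further on.

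The final peak list of the study, thresholded on the irreproducible discovery rate (IDR), held 5190 peaks, and 15 of the 33 Rab genes (45.5%) were bound in it. Among all protein-coding genes 29.2% were bound. The relaxed lists of replicates 1, 2 and 3 held 22598, 30000 and 18934 peaks, and each library was also read through its 5190 strongest peaks, to match the IDR list in length. In these, 15 Rab genes were bound in replicate 1 (45.5%), 14 in replicate 2 and 14 in replicate 3 (42.4% each). The corresponding shares of all genes were 26.6%, 31.2% and 29.1%. The mean over libraries was 43.4% ± 1.75 of Rab genes and 28.9% ± 2.33 of all genes (SD, n = 3 each). The Rab share was the higher one in every library. The SD shows how well calls on the same genes repeat between libraries, not the uncertainty of a share over 33 genes. In the whole relaxed lists, 20, 25 and 22 Rab genes had a peak (60.6%, 75.8% and 66.7%), against 42.6%, 54.5% and 45.2% of all genes. In the combined relaxed list of 20761 peaks, 21 Rab genes had one (63.6%), against 45.5% of all genes. The files hold no read counts, so depth is unknown, and, per the text listings with the libraries, all 3 were called against a single control alignment. The IDR list was identical to the 5190 strongest peaks of the combined list, so a place in it is a rank on combined signal, and it need not recur in each library.

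**Figure D1:**
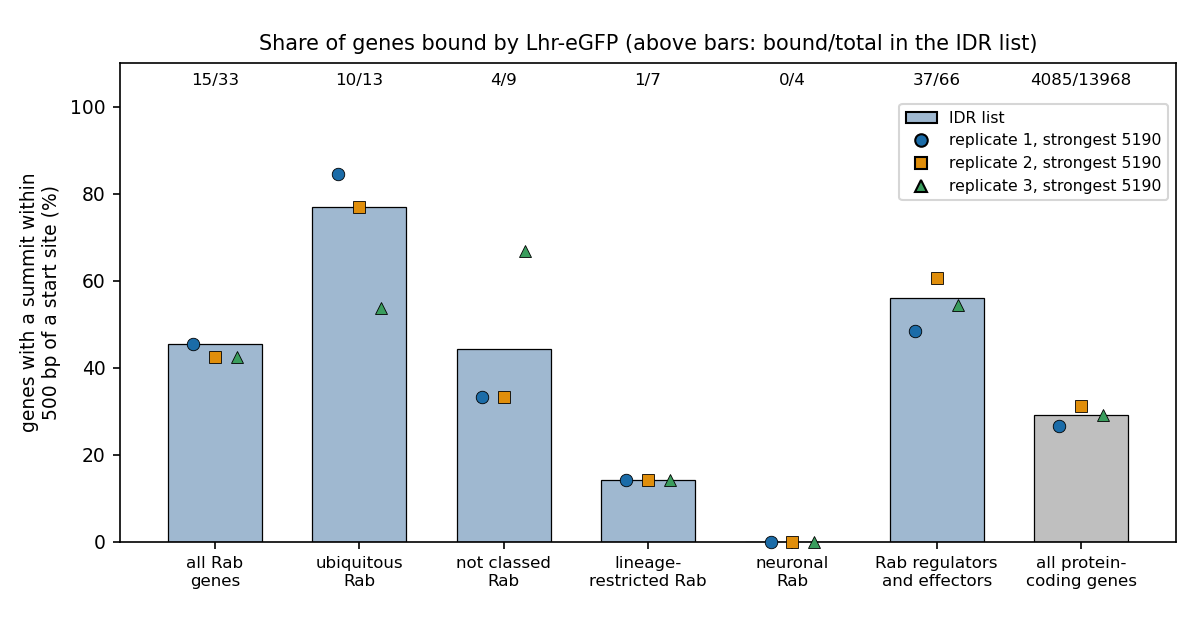
Share of genes (y axis, percent) bound at a start site, for Rab genes by class, their regulators and effectors, and all protein-coding genes. Bars give the IDR list and points the 5190 strongest peaks of each library. The 3 libraries lay close together for all Rab genes (42.4% to 45.5%) and apart for the ubiquitous (53.8% to 84.6%) and unclassed ones (33.3% to 66.7%).

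By where the proteins act, the count split unevenly. Of 13 Rabs that serve housekeeping steps in most cells, 10 were bound (76.9%). None of the 4 neuronal Rabs was bound, and of 7 lineage-restricted Rabs 1 was bound (14.3%). Among all genes 29.2% were bound, and the difference of such small classes from that share was not tested. The 9 Rabs left unclassed had 4 bound members (44.4%). In the 5190 strongest peaks of single libraries, 71.8% ± 16 of the ubiquitous Rabs were bound (SD, n = 3), with 11, 10 and 7 genes in replicates 1, 2 and 3. Neuronal or lineage-restricted Rabs had the same single bound gene, Rab23, in each library, which is 9.09% of 11. The shares of all genes in these lists were 26.6%, 31.2% and 29.1%. In the whole relaxed lists, which include background, 11, 13 and 13 ubiquitous Rabs had a peak in replicates 1, 2 and 3 (84.6%, 100% and 100%). Of the 11 neuronal or lineage-restricted Rabs, 3, 6 and 3 had one there (27.3%, 54.5% and 27.3%), against 42.6%, 54.5% and 45.2% of all genes. In replicate 2 the restricted share thus equalled that of all genes, and 3 of the 4 neuronal Rabs had a peak (75%). The classes were set from general knowledge of the proteins, not from expression in these embryos. They were chosen with earlier results of these data known, so the split between them is a description and not independent support. Of the 7 lineage-restricted genes, 5 are related X-linked copies, at which mapping could be limited, as described further on. None of these copies was bound. The remaining members of the class were Rab23, which was bound, and Rab32, which was not, so the low share of this class rests on the copies.

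Among the ubiquitous Rabs, the strongest peaks were at Rab5, Rab21 and Rab35. Rab5, the Rab of early endosomes, had its summit at position 2365215 of 2L, 58 bp downstream of a start site and in a 5′ UTR. It had rank 1334 of the IDR list, and ranks 1216, 1476 and 1380 in replicates 1, 2 and 3. Rab5 has 6 annotated start sites, and a further IDR summit (rank 2546) lay 251 bp upstream of another of them. Rab21, which also acts on early endosomes, had IDR rank 1457 and ranks 1533, 1597 and 1250 in the libraries. Its summit lay 57 bp upstream of the nearest of its 3 start sites, inside the gene and in a 5′ UTR. This gene lies 529 kb from the annotated end of X, in the arm's centromere-proximal part. Rab35, which acts at the plasma membrane and in recycling, had IDR rank 1797 and ranks 2735, 2113 and 1241, with a summit 185 bp upstream at position 20160057 of X. These 3 of 13 ubiquitous genes (23.1%) were within the strongest 2595 IDR peaks, against 17.2% of all genes, a much smaller gap than in the whole IDR list.

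Rab11, the Rab of recycling endosomes, and Rab7, the Rab of late endosomes and lysosomes, were bound lower in the list. Rab11 had IDR rank 4118, 202 bp upstream of its start on 3R, with ranks 3325, 3372 and 6299 in replicates 1, 2 and 3. The Rab11 summits of these libraries lay apart, at -254, -138 and -25 bp (negative is upstream), so the ranks need not be of 1 place. Rab7 had IDR rank 5092, 47 bp upstream, with ranks 4304, 4577 and 7482. Both lay beyond the 5190 strongest peaks of replicate 3. Rab14, which acts between endosomes and the Golgi, had IDR rank 3055 at 28 bp upstream, and it ranked 2538, 2919 and 4288, inside that limit in every library. Rab4, the Rab of fast recycling, was not bound in the IDR list. Its peak had rank 5800 in the combined list and ranks 4072, 7867 and 7982 in the libraries, so replicate 1 alone placed it among its strongest peaks.

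Of the secretory Rabs, Rab8, which carries cargo from the Golgi to the plasma membrane, had IDR rank 2822 and ranks 3308, 3289 and 2831, 22 bp upstream of its start at position 19871100 of 3L. Rab2, which acts at the Golgi and in the fusion of vesicles with lysosomes, had IDR rank 3452 at 12 bp upstream, and ranks 4796, 2613 and 3261. Both were within the strongest peaks of all 3 libraries. Rab1, which carries cargo between endoplasmic reticulum and Golgi, had IDR rank 4983 at 63 bp upstream. It ranked 4944 and 4889 in replicates 1 and 2 and 5924 in replicate 3, beyond the limit there. Rab18, found on lipid droplets, had IDR rank 3327, 18 bp upstream, and ranks 4452, 5019 and 2205. Rab6 (Golgi) and Rab10 (secretion of basement membrane) were the other unbound ubiquitous Rabs. Rab6 had no peak in replicate 1 and ranks of 13516 and 8386 in replicates 2 and 3, and Rab10 had none in replicate 1 and ranks of 5643 and 16128. Neither came within the strongest peaks of any library.

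**Figure D2:**
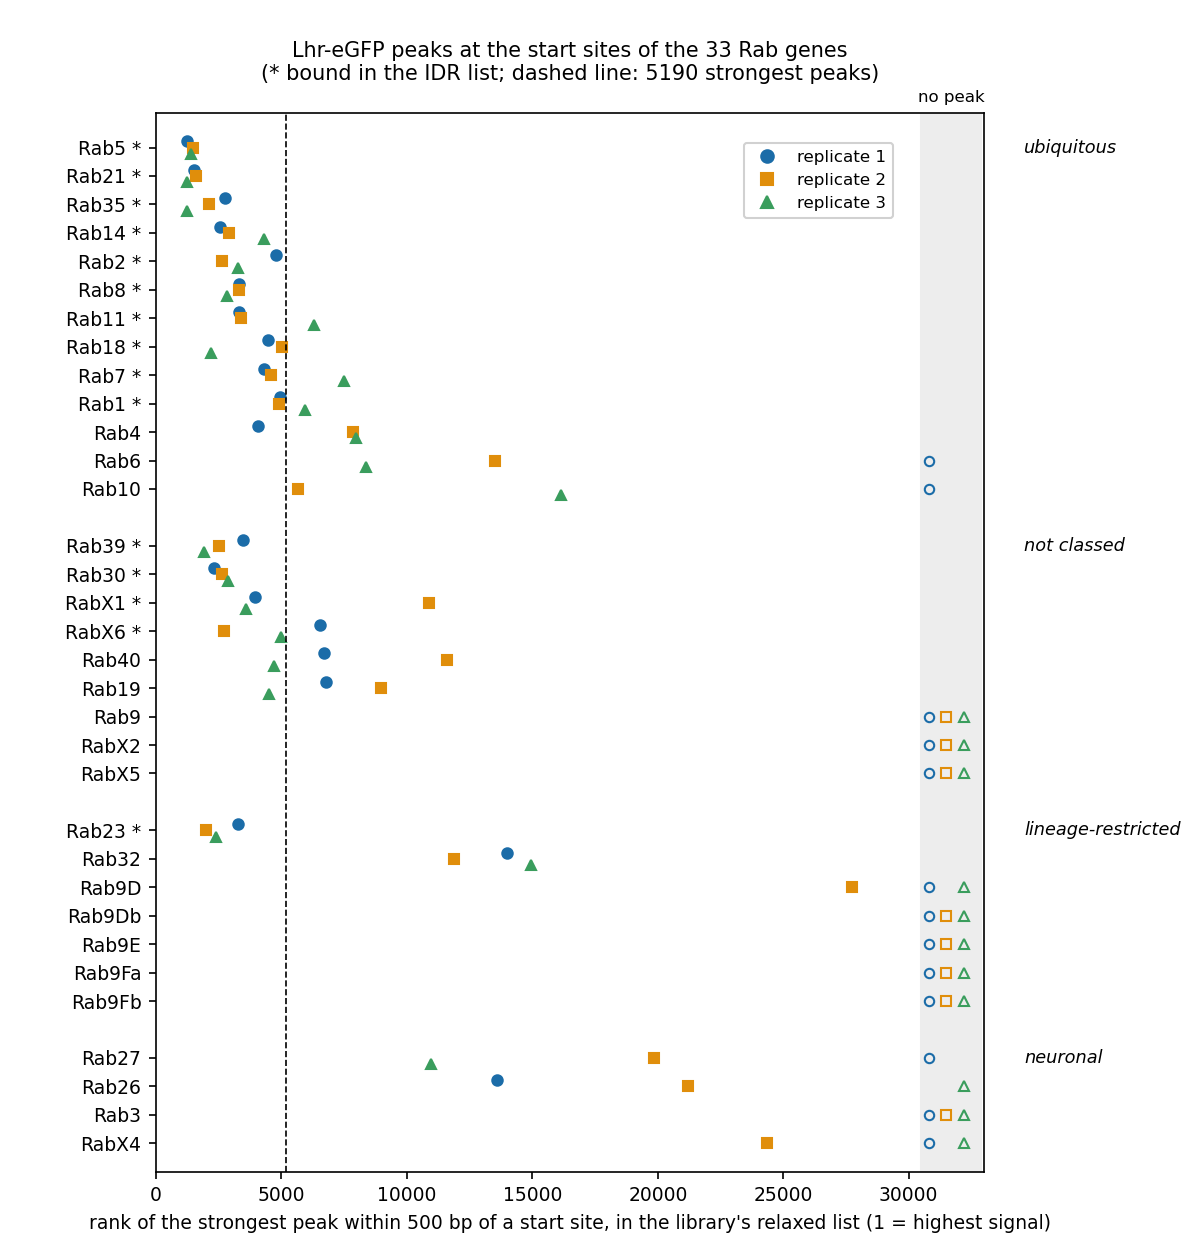
Rank (x axis, 1 for the highest signal) of the strongest peak within 500 bp of a start site, for each of the 33 Rab genes (rows, by class) in the relaxed list of each library. Filled symbols give ranks, open symbols in the grey band mark libraries with no such peak, and asterisks mark genes bound in the IDR list. Most ubiquitous Rabs sit left of the dashed line at 5190, and the neuronal Rabs all sit right of it or have no peak.

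The neuronal Rabs stood far down the lists. Rab3, the Rab of synaptic vesicles, had no peak in any relaxed list. Rab26, which is found on synaptic vesicles, ranked 13594 in replicate 1 and 21218 in replicate 2, and had none in replicate 3. Rab27, a Rab of regulated secretion, had no peak in replicate 1 and ranks of 19853 and 10941 in replicates 2 and 3. RabX4 ranked 24345 in replicate 2 and had no peak in the other libraries. None of these ranks is among the strongest peaks of its library, and the relaxed lists hold background by design. Rab26 and Rab27 entered the combined list, at ranks 16271 and 19867 of 20761.

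Rab23, known in flies for planar cell polarity and in mice for Hedgehog signalling, was the bound lineage-restricted gene. Its summit lay 293 bp upstream of its start at position 5685727 of 3R, with IDR rank 2637 and ranks 3283, 1974 and 2400 in the libraries. The same summit lay 128 bp from the start of plx (pollux), which codes for a protein with the domain of Rab GAPs and starts 421 bp away on the other strand. Rab32 (lightoid), which is needed for pigment granules of the eye, was not bound at a start site. Its best peaks there ranked 13975, 11861 and 14965. The 5 X-linked copies Rab9D, Rab9Db, Rab9E, Rab9Fa and Rab9Fb had no peak within 500 bp of a start in any library, apart from one of rank 27726 at Rab9D in replicate 2.

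These copies are the members at which mapping could be limited. Of all 31-base words within 500 bp of their start sites, 55.5% were unique in the genome at Rab9D, 37.9% at Rab9Db, 24.7% at Rab9E, 29.5% at Rab9Fa and 94.5% at Rab9Fb. RabX2, at 67.3%, was the other such member, and the remaining 27 Rab genes had 100% unique words. Aligned over the whole gene, Rab9Db and Rab9Fa were 99% identical and Rab9D and Rab9E 98.3%, while the pairs that involve Rab9Fb or RabX2 were 74.1% to 81% identical. Absence of a peak at these 6 genes was read with that limit, and its part in the result was not tested. None of the 5 copies was bound, so leaving them out could only raise the Rab share, to 15 of 28 genes (53.6%). No share of all genes without poorly mappable ones was computed to set beside it.

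The unclassed Rabs included 2 that were placed among the strongest peaks of all 3 libraries. Rab30, found at the Golgi in mammals, had IDR rank 2389 and ranks 2308, 2642 and 2861, with a summit 55 bp upstream at position 7032661 of 2L. Rab39, linked in mammals to endosomes and autophagy, had IDR rank 2554 and ranks 3470, 2513 and 1920, 179 bp upstream on X. RabX1, which acts in endosomal sorting, had IDR rank 4360 and ranks 3950, 10889 and 3577, so replicate 2 did not place it among its strongest peaks. RabX6 had IDR rank 4266 and ranks 6541, 2707 and 4980, and here replicate 1 was the exception. Rab40, whose mammalian relatives are part of ubiquitin ligases, and Rab19 lay just outside the IDR list. Rab40 had rank 5612 in the combined list and ranks 6688, 11601 and 4688, and Rab19 had rank 6080 there and ranks 6761, 8979 and 4506. Replicate 3 alone placed both among its strongest peaks. Rab9, which acts in traffic between late endosomes and Golgi, RabX2 and RabX5 had no start-site peak in any relaxed list.

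The 15 bound Rab genes were set beside all bound genes for recurrence and rank. Of the 15 bound Rab genes, 10 (66.7%) were among the strongest peaks of 3 libraries and 5 (33.3%) of 2 libraries. Of all 4085 bound genes, 76.1% were in 3 libraries, 18.4% in 2, 5.24% in 1 and 0.294% in none. Of the 18 unbound Rab genes, 15 were in none (83.3%) and 3 in 1 library (16.7%). Of all 9883 unbound genes, 91.3% were in none, 6.64% in 1, 1.93% in 2 and 0.172% in 3. The median IDR rank was 3055 over the 15 bound Rab genes (1334 to 5092) and 2181 over all bound genes. Within the strongest 2595 IDR peaks there were 5 Rab genes, which is 33.3% of those bound, against 58.8% for all bound genes. Read as a share of every gene, this stricter list held 15.2% of Rab genes and 17.2% of all genes, so the higher Rab share rests on peaks of middle and lower rank. These are counts over few genes and were not tested.

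Summits at Rab genes lay close to the start and upstream of it. The median position was −56 bp over the 15 genes (−293 to 58), against −108 bp over all 4085 bound genes. For Rab genes 93.3% of summits were upstream, against 92.5% for all bound genes, and 66.7% were within 100 bp of a start site, against 45.5%. Upstream here is relative to the nearest start site, so the Rab21 summit counts although it lies in a 5′ UTR. In single libraries the Rab median was −52 bp (n = 15 genes), −51.5 bp (n = 14) and −59 bp (n = 14) in replicates 1, 2 and 3, and that of all bound genes was −114, −104 and −106 bp. For the 10 Rab genes found in all 3 libraries, the 3 summits spanned a median of 42.5 bp, from 7 bp at Rab30 to 112 bp at Rab39. The median span over 3107 genes was 39 bp. The widest spans after Rab39 were those of Rab23 (98 bp) and Rab2 (74 bp).

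**Figure D3:**
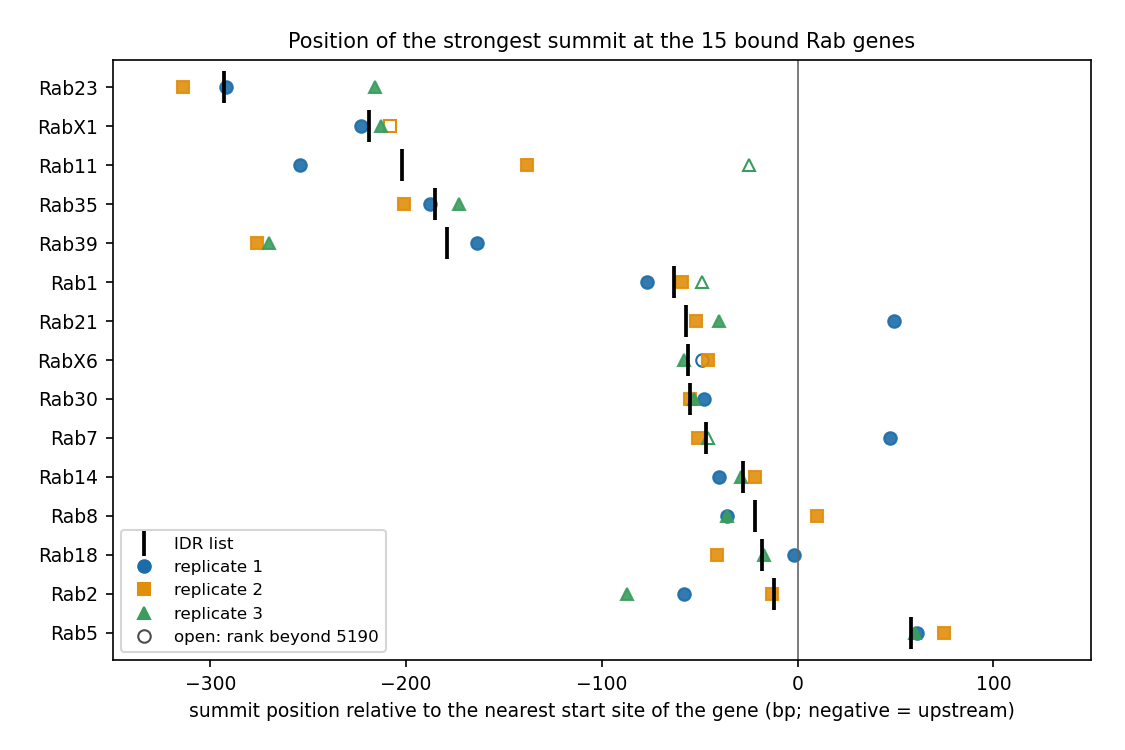
Position (x axis, bp, negative is upstream) of the strongest summit relative to the nearest start site of the gene, for the 15 bound Rab genes (rows). Black bars give the IDR list and coloured symbols the libraries, open where the peak ranked beyond 5190. From Rab1 down to Rab2 the IDR summits lie within 63 bp upstream of the start, while those of Rab23, RabX1, Rab11, Rab35 and Rab39 lie 179 to 293 bp upstream.

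Many fly genes start back to back, so a summit near a Rab start can lie as near to that of another gene. A protein-coding gene on the other strand started within 1000 bp upstream of 18 of the 33 Rab genes (54.5%), against 36.2% of all genes. Of these 18, 12 were bound (66.7%), and of the 15 without such a neighbour 3 were bound (20%). Among all genes the shares were 51.2% with and 16.8% without the neighbour. The 3 bound genes without one were Rab1, Rab11 and Rab35, all ubiquitous. At 11 of the 15 bound Rab genes the summit lay within 500 bp of another protein-coding start as well. The other gene's start was the nearer one at Rab23 (plx, 128 bp), Rab39 (Pdp, 93 bp), Rab7 (Epp, 45 bp) and RabX1 (mi, 24 bp). Which gene of a pair such a peak belongs to cannot be told apart from these files. Counted for the nearest gene alone, 11 Rab genes stayed bound (33.3%), against 21.6% of all genes. Of all 4085 bound genes, 2585 had a neighbour within 1000 bp upstream on the other strand, as had 12 of the 15 bound Rab genes. The share of all bound genes with another start within 500 bp of the summit was not computed. The 11 of 15 thus says nothing particular about Rab genes. At Rab18 the neighbour was RpL35, a ribosomal protein gene 589 bp away, and the summit lay 18 bp from the Rab18 start.

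The neighbours were also counted within the classes. Of 10 ubiquitous Rabs with one, 7 were bound, and of the 3 without one all 3 were bound. Of the neuronal Rabs, Rab26 starts 754 bp from Pc (Polycomb) and Rab27 89 bp from mei-38, and both were unbound at 500 bp. Rab23 was the single lineage-restricted gene with such a neighbour. The number of start sites also differs between genes, and each one adds a window in which a summit can fall. Among genes with a single start site, 10 of 24 Rab genes were bound (41.7%), against 24.2% of all such genes. With several, 5 of 9 Rab genes were bound (55.6%), against 43.4%.

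Intragenic summits, inside a gene but over 500 bp from all its start sites, were found in 5 of 33 Rab genes (15.2%), against 6.38% of all genes. By class, 2 of 13 ubiquitous (15.4%), 2 of 7 lineage-restricted (28.6%), 1 of 9 unclassed (11.1%) and 0 of 4 neuronal Rabs held one. The split between ubiquitous and lineage-restricted Rabs at start sites was thus not seen here, over few genes and without a test. All 5 intragenic summits lay in introns. The strongest was in Rab11, 1954 bp downstream of the start at position 21113362 of 3R. Its IDR rank was 1706, and 1529, 1917 and 2034 in replicates 1, 2 and 3, ahead of the promoter summit of the same gene in each list. Rab32, unbound at its start sites, had an intron summit of IDR rank 2732 on 2R, with ranks 3065, 2510 and 3085, 2100 bp upstream of the nearest of its 5 start sites. Rab9, also unbound, had one of IDR rank 3492, 1866 bp downstream, with ranks 4519, 2307 and 4099. These 3 summits were among the strongest peaks of every library. The intron summit of Rab23 (IDR rank 5096, with ranks 3746, 10508 and 4677) was found in 2 libraries, and that of Rab14 (IDR rank 4365, with ranks 2840, 7196 and 5563) in 1. The Rab14 one lay 607 bp downstream of its nearest start site. It was lost with a window of 1000 bp, which left 4 Rab genes (12.1%). With replicate 1 or replicate 3 left out, 3 Rab genes kept an intron summit shared by the other libraries, and with replicate 2 left out 4 did. The share of all genes was not recomputed there, so whether the contrast with 6.38% holds was not tested. Longer genes hold more sequence away from a start. The median length was 4739 bp for these 5 Rab genes and 2445 bp for all 33, against 18280 bp for all genes with an intragenic summit and 2164.5 bp for all genes.

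**Figure D4:**
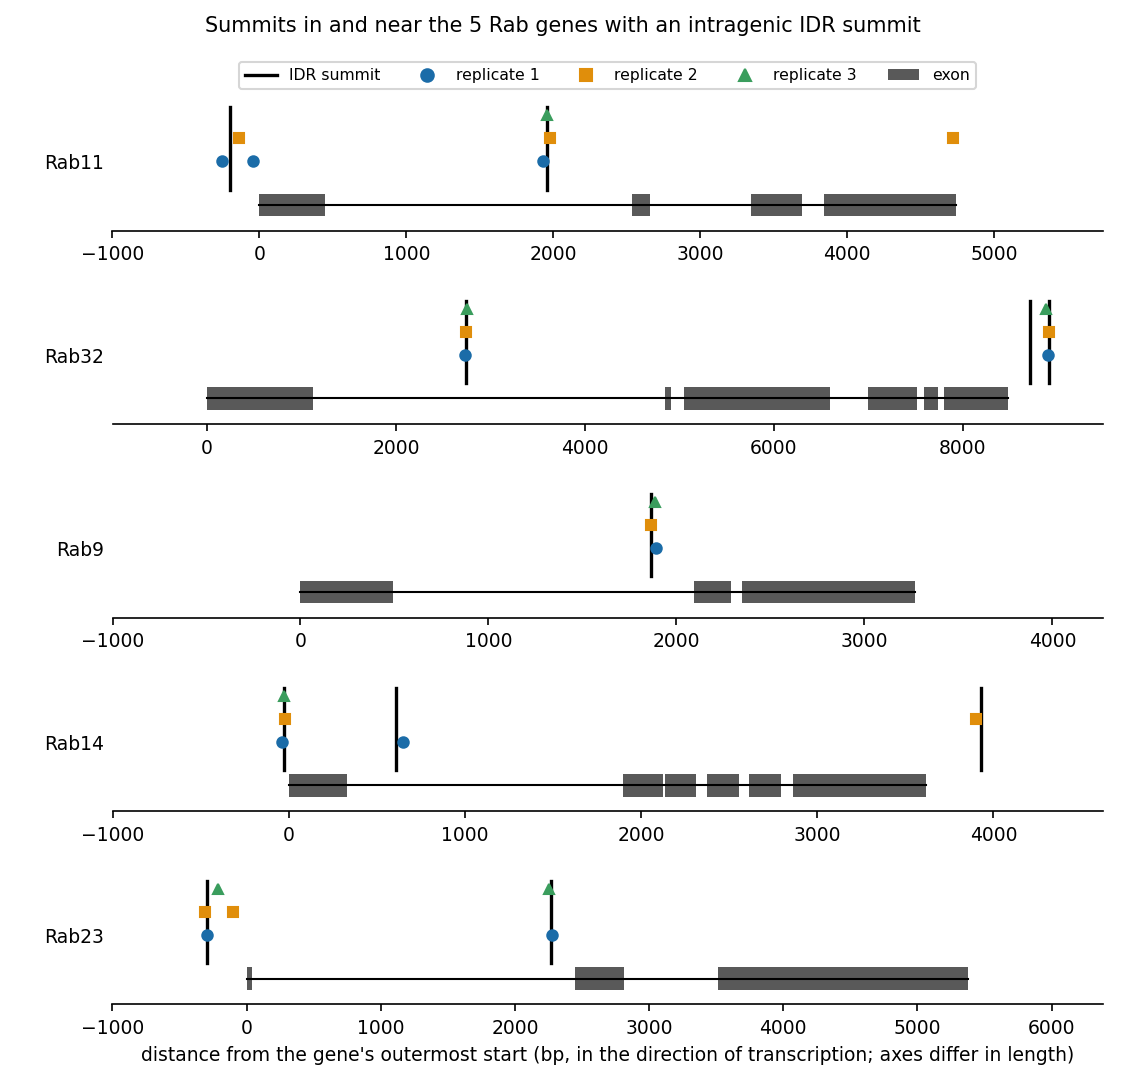
Maps of the 5 Rab genes with an intragenic IDR summit, as distance from the outermost start (x axis, bp, along transcription; each gene has its own scale). Grey boxes are exons, black lines IDR summits and symbols the strongest peaks of each library. The intron summits of Rab11, Rab32 and Rab9 carry symbols of all 3 libraries, that of Rab23 carries 2 and that of Rab14 carries 1.

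In all, 8 promoter words were searched on both strands within 100 bp of summits, and in promoters from 250 bp upstream to 50 bp downstream of a start site. The DRE, shown above in 5 stretches, lay near 7 of the 15 Rab summits (Rab2, Rab7, Rab8, Rab14, Rab30, Rab35 and RabX6). It lay near 11% of the 2864 IDR summits at promoters of all genes. The Ohler 7 element lay near 6 Rab summits (Rab7, Rab11, Rab18, Rab30, Rab39 and RabX1), against 7.51% of all promoter summits. Only Rab7 and Rab30 held both words. The M1BP element was near 1 Rab summit (Rab14), against 10.6%, the E-box CAGCTG near 2, against 13%, and the Initiator (TCAGTT) near 1, against 11.3%. The GAGA element (GAGAGAG) and the CTCF core (AGGTGGCG) were near none, against 2.13% and 1.22%. The BEAF-32 word CGATA, which every DRE also contains, was near 13 Rab summits, against 47.5%.

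In the promoters, the DRE was found at 11 of 33 Rab genes (33.3%), against 10.2% of all genes. Of these 11, 7 were bound (63.6%) and Rab6, Rab19, Rab27 and Rab40 were not. Of the 22 Rab genes without it, 8 were bound (36.4%). Among all genes, 49.9% with a DRE and 26.9% without one were bound. The Ohler 7 element was in 6 Rab promoters (18.2%), against 7.42% of all promoters. Of these 6, 5 were bound (83.3%) and Rab40 was not, against 56.2% bound among all genes with the word. The word CGATA was in 22 Rab promoters (66.7%), against 53% of all. Of these 22, 14 were bound (63.6%), against 36.9% of all genes with the word. Rab23 was the bound gene without it. The M1BP element was in 1 Rab promoter (6.77% of all promoters), the CTCF core in 1 (0.931%), the GAGA element in 2 (9.06%), the E-box in 8 (22.3%) and the Initiator in 8 (32.4%). The GAGA and CTCF words were held by unbound genes, Rab26 with both and Rab32 with the GAGA element. A match is a string of letters and not a measured site, and the words overlap in the genes that hold them.

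The genes of proteins that act on or through Rabs were described beside the family, from a list of 66. Of these, 37 were bound in the IDR list (56.1%), against 29.2% of all genes. The gene plx counts here through the summit it shares with Rab23. A neighbour within 1000 bp upstream on the other strand was present at 62.1% of the list, against 36.2% of all genes. With such a neighbour 58.5% were bound (51.2% of all genes), and without it 52% (16.8%). By the nearest gene alone 27 were bound (40.9%), against 21.6% of all genes. In single libraries the shares were 54.5% ± 6.06 of this list and 28.9% ± 2.33 of all genes (SD, n = 3 each). By role, 10 of 13 GAPs (76.9%), 12 of 19 GEFs (63.2%), 14 of 30 effectors (46.7%) and 1 of 4 genes for prenylation and recycling (25%) were bound, against the same 29.2% of all genes. The median IDR rank of the bound ones was 2295, against 3055 for the Rab genes. The strongest was Rabex-5, the GEF of Rab5, at IDR rank 336 and 63 bp upstream of its start, and Rab5 was also the top bound Rab. Next came Tbc1d15-17, a GAP (rank 438), and brun, a subunit of a TRAPP complex, which acts as a Rab GEF (rank 878). The others of the first 6 were lt, a subunit of the HOPS complex that acts with Rab7 (1083), the GAP gene wkd (1125) and spri, a GEF for Rab5 (1143). All 6 were among the strongest peaks of 3 libraries. Of the 66 genes, 22 (33.3%) were among the strongest peaks of no library, against 64.7% of all genes. Both genes of proteins that retrieve Rabs or present them for prenylation, Gdi and Rep, were among these 22. Rim and Rph, effectors of Rab3 in synaptic release, were also among them, and they were picked out after their values were seen.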

How the data were processed

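Chromatin immunoprecipitation of Lhr-eGFP from 0 to 14 h embryos was deposited as peak lists for 3 libraries of 1 group. Per the labels and the text listings with each library, the authors made a relaxed list per library, a combined one and an IDR list. No label or header names the aligner, the peak caller or the IDR threshold. The deposited signal of a peak is the authors' enrichment value, used to rank peaks within a list. The deposited −log10 q-value was not used for ranking. Lists for dm6 were used, with Ensembl 115 gene models of Release 6 (FlyBase identifiers). Lists for dm3 were not used.

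Summits were placed within 500 bp of start sites with Python 3.11.15, pandas 2.3.3 and Biopython 1.88, and the placement was tested on made-up positions. Gene counts are given beside the share of all genes, with no test, since members, classes and regulator names were chosen with earlier results of these data known. All members were named, and regulators by signal rank. Of the regulator names, 66 matched a gene and 2 did not. Alternatives were other windows, lists and agreements of libraries, each library left out, the nearest gene alone, and 2 added after the data were seen.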

Additional observations from a re-analysis of the deposited data

How the results depend on the processing

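No paired analysis was possible because there is 1 group. Leaving out a library kept IDR peaks shared by the other 2, which left 10 to 12 Rab genes, 7 to 10 ubiquitous, 1 to 1 restricted (neuronal or lineage-restricted), 3 to 4 with an intragenic summit, 26 to 30 regulators and 3152 to 3430 of all genes. The strongest 2595 IDR peaks left 5 Rab genes (15.2%, below the 17.2% of all genes), 3 ubiquitous (23.1%), 0 restricted, 1 intragenic, 19 regulators and 2402 of all genes. Peaks shared by all 3 libraries within 50 bp left 7 Rab genes, 6 ubiquitous, 0 restricted, 3 intragenic, 16 regulators and 2194 of all genes. At 100 bp, 24 regulators and 3 intragenic genes were left, and at 200 bp also 3 intragenic. The combined list gave 3 restricted, 8 intragenic and 6362 of all genes. A window of 200 bp or the nearest gene alone left 0 restricted (Rab23 was lost), and 1000 bp gave 2 (Rab26 was added). Among genes with 1 start site, chosen after seeing the data, 2480 were bound, since fewer genes enter. The cause of the other changes was not tested. In 45 further recomputed counts the value stayed within 1.5 times the original. Intragenic counts were not run for the nearest gene alone, and the intragenic share of all genes was computed for the main setting only. Unknown depth limits what an absent peak can show.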

Other observations

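Within 1000 bp past the 3′ end of a Rab gene, 5 IDR summits were found at 4 genes, each near the start of the next gene. The matching share of all genes was not computed, so this count says nothing particular about Rab genes. RabX5, which had no start-site peak, had an IDR summit 144 bp past its end, 103 bp from the start of RpL23A, a ribosomal protein gene. Its IDR rank was 32, and 48, 22 and 29 in replicates 1, 2 and 3, which is far above any summit at a Rab start site. Rab32 had a summit 434 bp past its end and 169 bp from the start of Rme-8, a gene of endosomal traffic, with IDR rank 509 and ranks 574, 1001 and 349 in the libraries, and a weaker one 231 bp past its end (IDR rank 3959). RabX6 had one 995 bp past its end and 27 bp from the start of Vti1a, which codes for a SNARE protein, with IDR rank 764 and ranks 965, 461 and 1174. Rab14 had a weaker one 309 bp past its end and 179 bp from the start of Pgant35A, with IDR rank 4843. It ranked 5898, 4535 and 7372 in replicates 1, 2 and 3, so replicate 2 alone placed it among its strongest peaks.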
